A study of Mus musculus with 6 samples.

Results

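IL33 and its relatives in the interleukin-1 (IL-1) family were measured by RNA-sequencing in 6 xenograft tumors of LAPC-4, a human hormone-sensitive prostate cancer line with wild-type androgen receptor. The 8 genes described here, of 60649 genes in the count table, are the cytokines IL33, IL1A, IL1B and IL18, the antagonist IL1RN, and the receptor chains IL1RL1, IL1R1 and IL1RAP. IL33 was picked on its fold change between diets in these same tumors, and the other genes were chosen from its family with values of this comparison already known. The differences between diets are therefore given as a description, without a test.

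The tumors came from 3 mice fed a high glycemic index Western diet (HiGI), with sucrose as the main carbohydrate, and 3 mice fed a low glycemic index Western diet (LoGI), with a high-amylose starch (Hylon-VII) and maltodextrin in place of sucrose. All were male SCID mice, whose own B and T cells are missing but whose myeloid cells are not, and no age is given in the sample records. All were on the HiGI diet when LAPC-4 cells in Matrigel were injected into the right flank, and diets were assigned at random once tumors had grown. The model is a single cell line, so the 6 tumors differ in host and diet but not in the source of the cancer cells. Whether the tumors carry markers of prostate epithelium was not checked here, because the counts are listed by human Ensembl identifier and were paired with symbols for these 8 genes only.

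IL-1 family cytokines are alarm signals of epithelium and myeloid cells. IL-1 alpha and IL-1 beta bind the receptor IL1R1, which must pair with the shared accessory chain IL1RAP before it signals through MyD88 to NF-kB, and the antagonist IL1RN occupies IL1R1 without recruiting IL1RAP. IL-33 is kept in the nucleus of epithelial and stromal cells, is released on damage, and signals through its own receptor ST2 (the product of IL1RL1), again together with IL1RAP. IL-18, like IL-1 beta, is made as a precursor that caspase-1 cuts, and uses a separate receptor that is not among these genes.

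The cytokines did not differ between diets in the same direction. IL33 had more reads in LoGI tumors, whereas IL1A, IL1B and IL18 had fewer. Of the receptor chains, IL1RAP had fewer reads in LoGI tumors and IL1R1 had about as many on both diets. The threshold used for the study was an adjusted p under 0.05, here from the quasi-likelihood test of edgeR, together with a log2 fold change of 1 or more in either direction. At this threshold 1 of the 8 genes was higher in LoGI tumors, where 0.0733% of the 24545 genes tested were. On the other side 4 of the 8 were lower, where 3.38% of all tested genes were. The diets did not overlap in 1 of the 8 genes that was higher in LoGI tumors, against 7.59% of all tested genes, and in 4 that were lower, against 10.9%. The median log2 fold change was -1.43 over the 8 genes and 0.00 over all tested genes. Since this contrast was known when the genes were picked, nothing is read from these shares. All 8 genes had at least the 10 reads over 6 tumors that the fit required, but IL33, IL1A and IL1B passed only through the diet in which they were high.

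**Figure D1:**
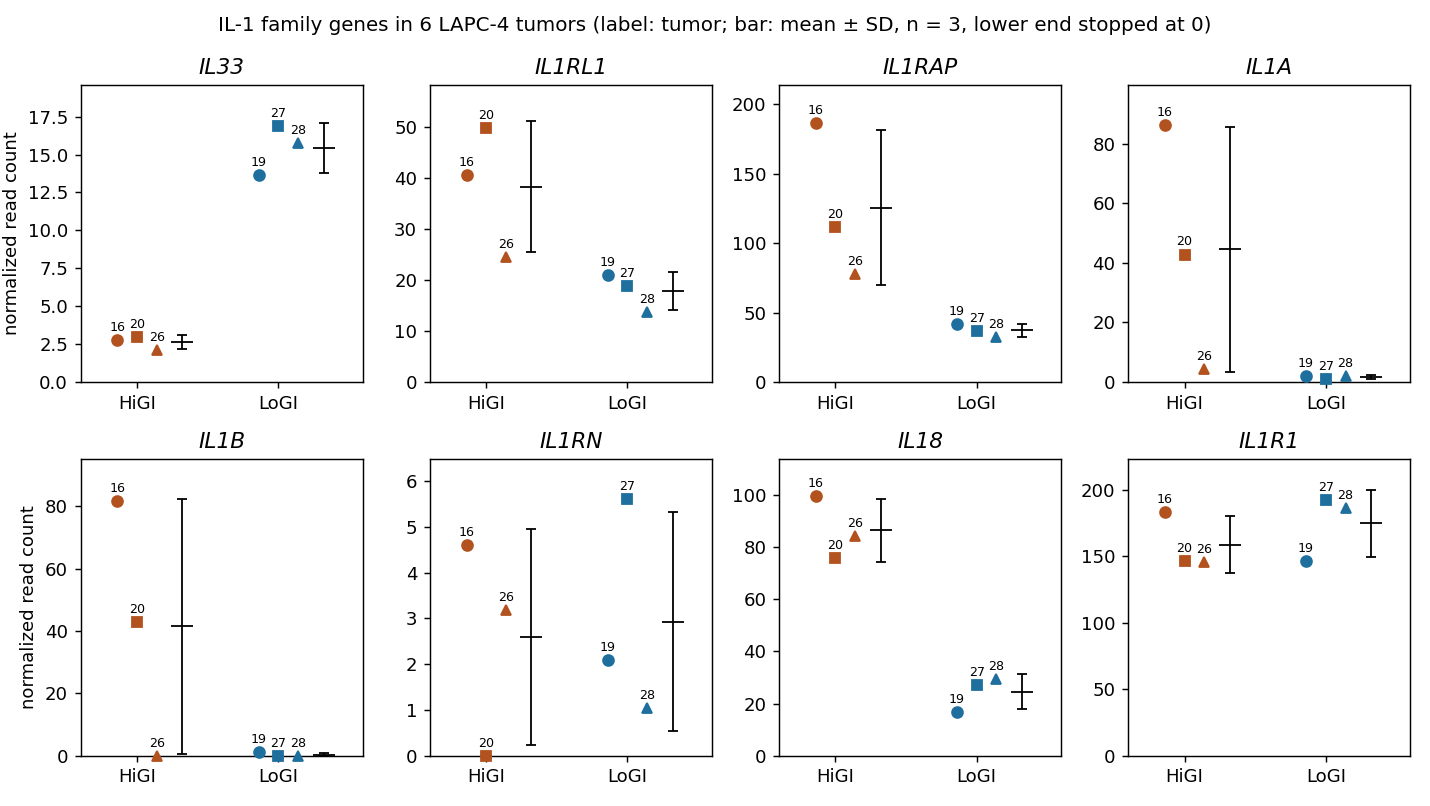
Normalized read count (y axis, from 0, a separate scale in each panel) of the 8 genes in each of the 6 tumors, labelled by tumor number, with the mean ± SD of 3 tumors as a black bar. IL33 is higher in all LoGI tumors, IL1RAP and IL18 are lower in all of them, and IL1A and IL1B are high in HiGI tumors 16 and 20 only.

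Read totals lay between 18749813 and 21550812 per tumor, so a gene with a few reads is measured here at the edge of detection. Normalized read counts are reads divided by the TMM-scaled library size and multiplied by its mean over the tumors, and fold changes are on the log2 scale, LoGI over HiGI, with standard errors from DESeq2. RNA was taken from bulk tumor, in which fewer cells of a type and less RNA per cell cannot be told apart. Transcript lengths were not used, so levels are compared between tumors and not between genes. Values of single tumors are given in the order HiGI 16, 20 and 26, then LoGI 19, 27 and 28, by the numbers in the sample records.

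IL33 (ENSG00000137033.12), the nuclear alarm cytokine, was read 3, 3 and 2 times in the HiGI tumors and 13, 18 and 15 times in the LoGI tumors. Every LoGI tumor was above every HiGI tumor, and the lowest LoGI value was 4.57 times the highest HiGI value after normalization. The mean normalized count was 2.63 ± 0.445 (SD, n = 3) under HiGI and 15.4 ± 1.63 (SD, n = 3) under LoGI. The log2 fold change fitted by edgeR was 2.50 (standard error 0.77). The pooled reads, 46 against 8, give a ratio of 5.86 with a 95% Clopper-Pearson interval of 2.74 to 14.4, which covers counting error only. The 95% interval from DESeq2 was 1.05 to 4.06, around its own estimate of 2.56. It allows for spread between tumors through a dispersion estimated partly from other genes, not from the IL33 values alone. This interval was not adjusted for the number of genes or for IL33 having been picked on this contrast. IL33 had more reads in all than 26.9% of the tested genes. With a prior count of 2, which pulls low counts together, the log2 fold change was 1.91.

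ST2, the receptor for IL-33, is encoded by IL1RL1 (ENSG00000115602.17). The HiGI tumors gave 44, 50 and 23 reads of it, and the LoGI tumors 20, 20 and 13. The diets did not overlap, but HiGI tumor 26 was only 1.17 times the highest LoGI tumor after normalization. The means were 38.3 ± 12.8 (SD, n = 3) and 17.8 ± 3.75 (SD, n = 3), and the log2 fold change of -1.10 (standard error 0.42, 95% interval -1.92 to -0.28, not adjusted for the number of genes) was not past the threshold. With 1 tumor left out it ran from -1.33 without HiGI tumor 26, where it was past the threshold, to -0.87 without HiGI tumor 20. While IL33 had more reads in every LoGI tumor, its receptor had fewer. Per IL1RL1 read there were 0.0682, 0.060 and 0.0870 IL33 reads in the HiGI tumors and 0.65, 0.90 and 1.15 in the LoGI tumors. This ratio can be compared between tumors but not read as a ratio of molecules. It restates the differences of both genes, which were picked with them known.

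IL1RAP (ENSG00000196083.10), the accessory chain that ST2 and IL1R1 share, gave 203, 112 and 73 reads in the HiGI group. In the LoGI group it gave 40, 39 and 31. Every HiGI tumor was above every LoGI tumor, by 1.85 times at the closest pair. The mean normalized count was 125 ± 55.9 (SD, n = 3) under HiGI and 37.0 ± 4.72 (SD, n = 3) under LoGI. The log2 fold change was -1.76 (standard error 0.31), and it stayed past the threshold with each tumor left out. The change ran from -2.01 without HiGI tumor 26 to -1.35 without HiGI tumor 16.

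IL1R1 (ENSG00000115594.12), the signaling receptor for IL-1 alpha and IL-1 beta, was counted at 199, 147 and 137 reads with HiGI and at 139, 205 and 177 reads with LoGI. The diets overlapped. The mean normalized counts were 158 ± 21.4 (SD, n = 3) and 175 ± 25.1 (SD, n = 3), with a log2 fold change of 0.14 (standard error 0.19) and a 95% interval of -0.22 to 0.51. This was the gene with most reads of the 8. There were 1.02, 0.762 and 0.533 IL1RAP reads per IL1R1 read in the HiGI tumors, against 0.288, 0.190 and 0.175 in the LoGI tumors. These ratios mostly restate the difference in IL1RAP, which was known when the genes were picked.

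**Figure D2:**
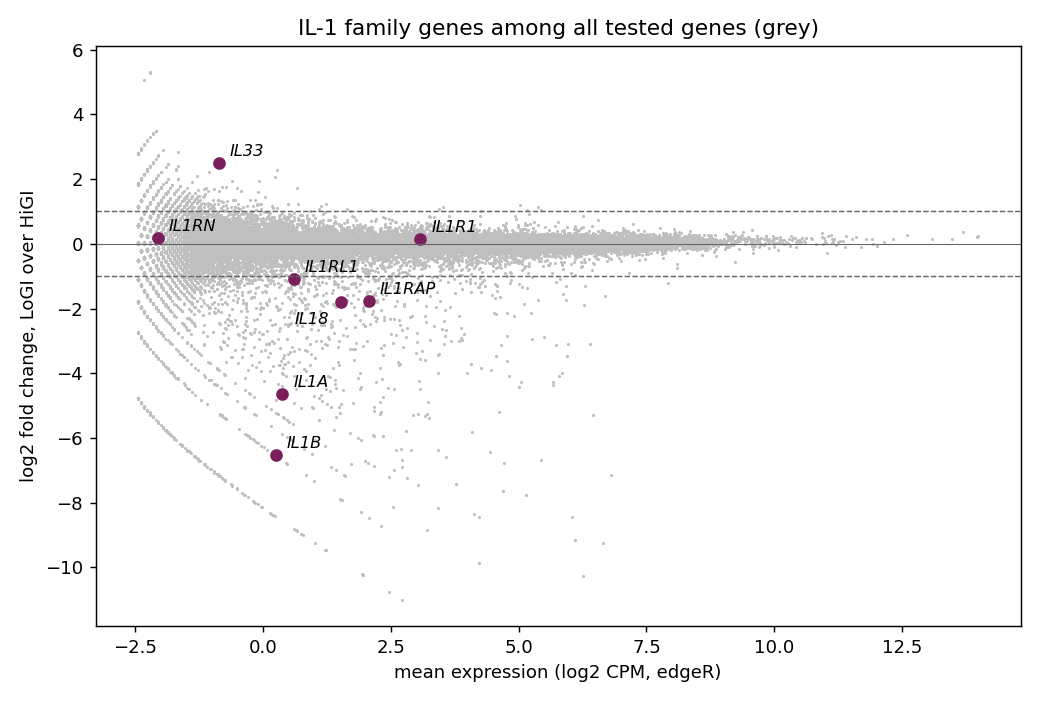
Log2 fold change of LoGI over HiGI (y axis) against mean expression in log2 CPM (x axis) for all 24545 tested genes (grey) and the 8 IL-1 family genes (labelled), with dashed lines at a log2 fold change of 1 and -1. IL33 lies above the upper line, IL1RN and IL1R1 lie near 0, and IL1RL1, IL18, IL1RAP, IL1A and IL1B lie below the lower line.

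IL1A (ENSG00000115008.6), which encodes the membrane-bound and nuclear form of IL-1, stood at 94, 43 and 4 reads in the HiGI tumors. It stood at 2, 1 and 2 reads in the LoGI tumors. HiGI tumors 16 and 20 stood far above the other 4 tumors, and HiGI tumor 26 was 2.02 times the highest LoGI value after normalization, on 4 reads. The means were 44.5 ± 41.2 (SD, n = 3) and 1.71 ± 0.672 (SD, n = 3), so that the SD among HiGI tumors was nearly as large as their mean. The log2 fold change was -4.64 (standard error 1.28), and the pooled reads, 141 in HiGI against 5 in LoGI, give a 27.6-fold ratio with a counting interval of 11.6 to 86.5. The log2 fold change was -3.72 without HiGI tumor 16, -5.16 without HiGI tumor 26 and -3.68 with a prior count of 2.

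IL1B (ENSG00000125538.12), the secreted and caspase-1-dependent form, stood at 89, 43 and 0 reads with HiGI and at 1, 0 and 0 reads with LoGI. Here HiGI tumor 26 lay among the LoGI tumors and the diets overlapped, and a count of 0 still allows up to 3 reads at this depth. The mean normalized count was 41.6 ± 41.0 (SD, n = 3) under HiGI and 0.350 ± 0.606 (SD, n = 3) under LoGI. The pooled reads, 132 against 1, give a ratio of 129 with a counting interval of 22.8 to 5150.2. The fitted log2 fold change of -6.52 (standard error 2.79) rests on that single LoGI read and on edgeR's default prior, and became -4.24 at a prior count of 2. With 1 tumor left out it ran from -8.41 (without LoGI tumor 19) to -5.55 (without HiGI tumor 16). IL1B was past the threshold in edgeR's test but not in the DESeq2 Wald test, nor without LoGI tumor 19 or LoGI tumor 27.

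IL1A and IL1B had near-equal read counts in HiGI tumors 16 and 20. There were 1.06 IL1A reads per IL1B read in tumor 16, and 43 reads of each in tumor 20, while tumor 26 had 4 reads of IL1A and 0 of IL1B. From tumor 20 to tumor 16 the normalized count differed by 2.02 times for IL1A and 1.91 times for IL1B, against 1.67 times for IL1RAP, 1.31 times for IL18 and 1.25 times for IL1R1. IL33 and IL1RL1 went the other way, at 0.924 and 0.813 times. From tumor 26 to tumor 16 it differed by 20.3 times for IL1A, 2.40 times for IL1RAP, 1.65 times for IL1RL1, 1.30 times for IL33, 1.26 times for IL1R1 and 1.18 times for IL18, and no ratio can be given for IL1B, with 0 reads in tumor 26.

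IL1RN (ENSG00000136689.19), the natural antagonist of IL1R1, was close to the limit of detection on both diets. Only 5, 0 and 3 reads fell on it with HiGI and 2, 6 and 1 with LoGI, and the diets overlapped. The log2 fold change was 0.18 (standard error 1.29), with a 95% interval of -2.34 to 2.70, so a difference was not detectable at this depth. HiGI tumors 16 and 20, which had most IL1A and IL1B reads, had 5 and 0 reads of the antagonist.

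IL18 (ENSG00000150782.12), the other caspase-1 substrate among these cytokines, gave 108, 76 and 79 reads with HiGI. With LoGI it gave 16, 29 and 28. The lowest HiGI tumor was 2.57 times the highest LoGI tumor, the widest gap among the genes that were lower in LoGI tumors. The means were 86.4 ± 12.01 (SD, n = 3) and 24.5 ± 6.74 (SD, n = 3), with a fitted log2 fold change of -1.81 (standard error 0.31). It stayed past the threshold with each tumor left out, and the change ran from -1.96 to -1.61. Unlike IL1A and IL1B, IL18 was about as high in HiGI tumor 26 as in the other HiGI tumors.

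The spread among tumors on one diet is also a description, since an adjusted p depends on it and the genes were picked with results of the contrast known. Among the 3 HiGI tumors the coefficient of variation was 92.4% for IL1A and 98.5% for IL1B. Of the 3435 tested genes whose HiGI mean was within 2-fold of that of IL1A, 99.7% varied less, and their median was 19.9%. For IL1B, 99.8% of 3486 such genes varied less. IL1RAP, at 44.5%, varied more than 96.6% of 3277 genes, whereas IL18 (13.9%) and IL1R1 (13.5%) lay near the medians of 16.2% and 12.9% for genes of like mean. IL1RL1 varied by 33.5%, against a median of 21.0%. IL33 varied by 17.0% in HiGI and 10.6% in LoGI tumors, with a variance of 0.0756 and 0.173 times the mean, below the 1 that counting alone gives on average. Among LoGI tumors IL1RAP varied by 12.7% and IL1RL1 by 21.1%, below the medians of 19.6% and 26.5% for genes of like mean, while IL18 (27.5%) and IL1R1 (14.4%) lay above their medians of 23.5% and 10.99%.

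**Figure D3:**
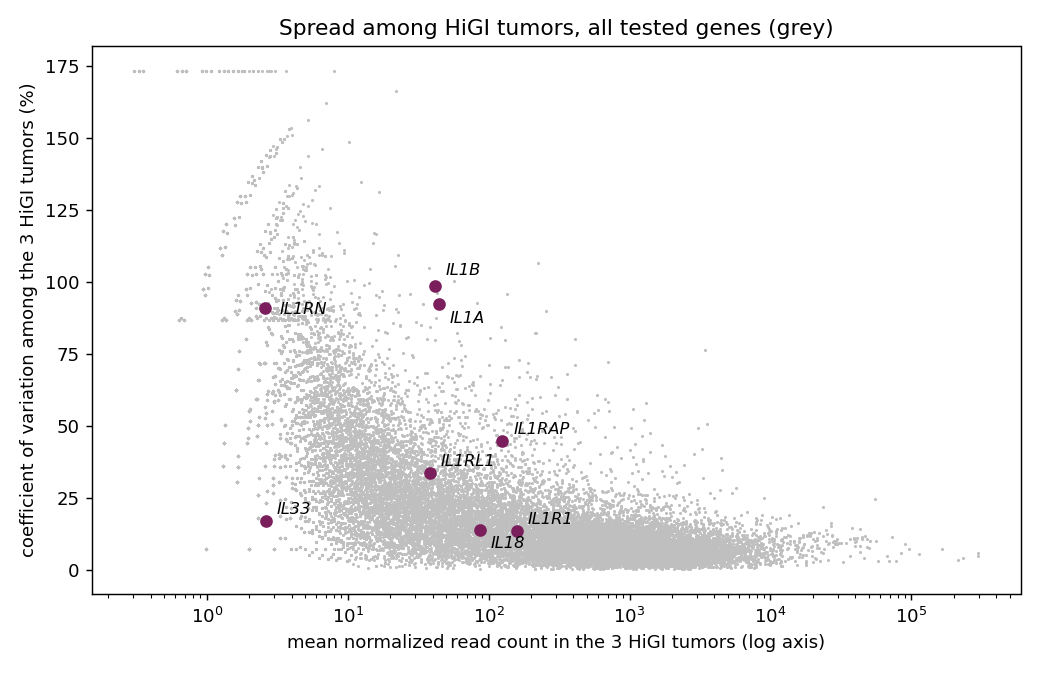
Coefficient of variation among the 3 HiGI tumors in percent (y axis) against their mean normalized read count (x axis, log scale) for all tested genes with a HiGI read (grey) and the 8 IL-1 family genes (labelled). IL1A and IL1B, at 92.4% and 98.5%, stand above nearly all genes of like mean, and IL18 and IL1R1 lie within the cloud.

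HiGI tumor 26 was the lowest HiGI tumor for 6 of the 8 genes, and HiGI tumor 16 the highest for 6. Some of these were near ties. Tumor 26 had 2 reads of IL33 against 3 and 3, and a normalized IL1R1 count of 145.8 against 146.5 in tumor 20. For IL1RN, tumor 16 had 5 reads against 3 in tumor 26. Tumor 26 was also the lowest HiGI tumor for 59.0% of the 829 genes past the threshold and lower in LoGI tumors, against 32.5% of all tested genes. For tumor 16 as the highest, these shares were 46.8% and 36.2%. For those 829 genes the median ratio of tumor 16 to tumor 26 was 1.26, well under the ratio of IL1A. Tumor 26 had the smallest library (18749813 reads). What sets this tumor apart was not tested.

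Summed over the 8 genes, the HiGI tumors had 35.4, 23.7 and 17.1 CPM and the LoGI tumors 12.2, 14.8 and 13.5 CPM. Pooled over the tumors of each diet, IL33 made up 0.519% of the HiGI reads on these genes and 5.62% of the LoGI reads. This share also reflects fewer LoGI reads on IL1RAP, IL18, IL1A, IL1B and IL1RL1, so it overstates the difference in IL33 itself.

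**Figure D4:**
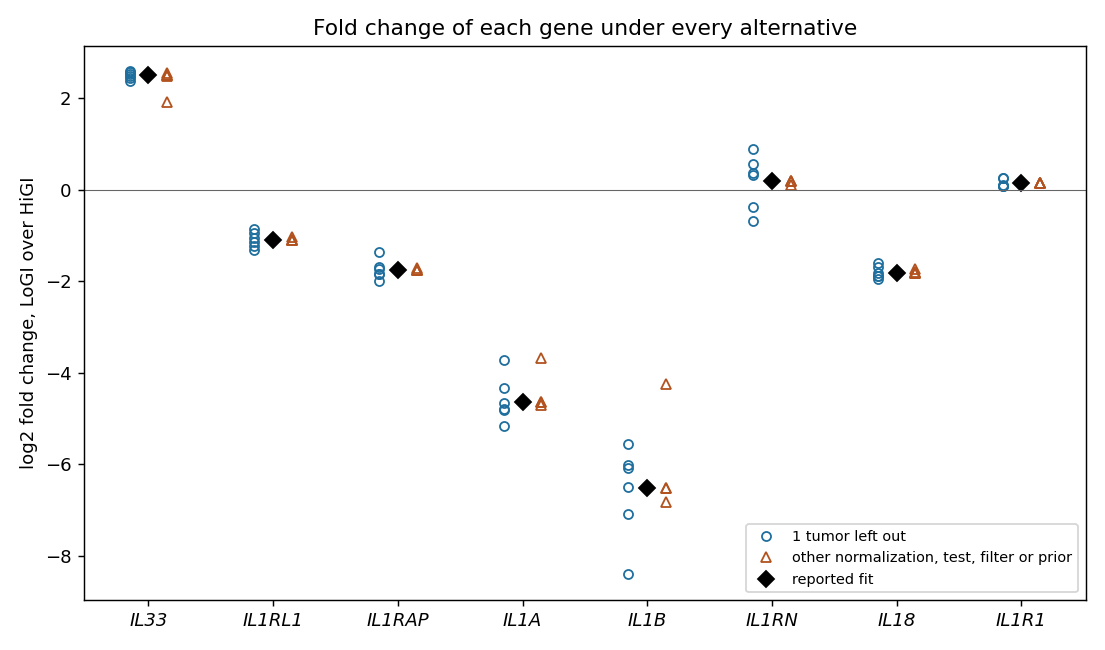
Log2 fold change of LoGI over HiGI (y axis) for each of the 8 genes (x axis) in the reported fit (diamonds), with 1 tumor left out (circles) and under another normalization, test, filter or prior count (triangles). IL33 stays above 0 and IL1RL1, IL1RAP, IL1A, IL1B and IL18 below 0 in every fit that tested them, IL1R1 stays slightly above 0, and IL1RN falls on both sides of it.

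The genes whose profile was most like IL33 over the 6 tumors were found by Pearson's r of log2 CPM among the 17721 other genes kept by edgeR's filterByExpr. The closest was ENSG00000147364.17 (r = 0.997), at 1973, 1852 and 1714 reads with HiGI and 2087, 2412 and 2119 with LoGI. ENSG00000154518.10 came next (r = 0.993), and the gene after it had r = 0.991. Their log2 fold changes were 0.28, 0.22 and 0.13 and none was past the threshold. Of the 17721 genes, 280 had an r above 0.9. How many would pass this limit by chance over only 6 tumors was not computed, and the IL33 profile rests on 2 to 18 reads per tumor. IL33 was picked on its difference between diets, so a high r in part restates that difference. Among the members kept by that filter, IL18 had r = -0.94, IL1RAP -0.89, IL1RL1 -0.79 and IL1R1 0.45 with IL33, all set in part by the same difference between diets and the same libraries.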

How the data were processed

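The authors mapped reads to the human (GRCh38.p13) and mouse (GRCm38.p6) genomes with BBMap and set aside reads found in mouse alone. The authors then aligned what was left to human with STAR and RSEM, and the deposited values are raw, whole-number read counts for each gene. Reads that match both genomes were kept by this step. How RSEM estimates became whole numbers is not given in the sources used here. The sample records name mouse as organism, and the counts are on human genes.

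Tumors were grouped by the diet in the sample records. Counts were compared in R 4.3.3 with edgeR 4.0.16 (TMM, glmQLFit and glmQLFTest, Benjamini-Hochberg adjustment) over all genes with at least 10 reads in the 6 tumors, and standard errors and 95% intervals of log2 fold changes came from DESeq2 1.42.0. The edgeR test was checked on simulated data in which only genes with more reads than IL33 or IL1RN were changed. Whether it recovers a change at counts as low as theirs was therefore not checked. Reads were not marked by molecule, so counting intervals cover counting error only. The alternatives were DESeq2 size factors, testing every gene with 1 read or more, filterByExpr, the Wald test of DESeq2, a prior count of 2, and leaving out each tumor.

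The 8 genes and all lists were chosen with earlier results of these data known. The rule for named genes was every member, the genes past the threshold in lists of the IL-1 pathway and of cell type markers, and the 3 genes most like IL33. The lists were not used here, because their symbols could not be matched to the identifiers with the mouse gene tables at hand, and of the genes most like IL33 only 2 are given by identifier. Genomic positions and sequences of the human genes were not used here.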

Additional observations from a re-analysis of the deposited data

How the results depend on the processing

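The number of genes called higher with LoGI (18) was 39 with all genes of at least 1 read and went from 4 (without LoGI tumor 19) to 26 (without HiGI tumor 26) with 1 tumor left out. It was 7 without HiGI tumor 20. The number lower (829) stayed within 1.5 times and went from 685 to 846 with 1 tumor left out. Of the 8 IL-1 family genes, 1 was higher in every fit. The number lower (4) was 2 with filterByExpr, which did not test IL1A, IL1B or IL1RN, and went from 3 to 5 with 1 tumor left out, since IL1B was lost without LoGI tumor 19 or 27 and IL1RL1 was added without HiGI tumor 26. IL1RL1 was also past the threshold with all genes of at least 1 read, and IL1B was lost with the DESeq2 Wald test. The log2 fold change of IL1RN went from -0.69 to 0.89 with 1 tumor left out and turned negative without HiGI tumor 20 or LoGI tumor 27. In all, 78 of 85 values of the 8 genes kept their direction and their side of the threshold, which includes staying below it. These values are refits of the same tumors for genes picked with this contrast known, so the tally is no independent support. Causes of the other shifts were not tested. Depth limits IL33 in HiGI tumors, IL1A and IL1B in LoGI tumors and IL1RN throughout. No paired analysis was run, because each tumor came from a separate mouse that was assigned to a single diet.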

Other observations

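The shape shared by IL1A and IL1B, with reads in HiGI tumors 16 and 20 and almost none elsewhere, was looked for in the whole count table. The limits were set after these values were seen. Of the 60649 genes, 24545 had enough reads to be tested. At least 40 reads in each of HiGI tumors 16 and 20 and at most 5 in each other tumor were found for 3 genes. They were IL1A, IL1B and ENSG00000060558.4, which stood at 77, 50 and 5 reads in HiGI tumors 16, 20 and 26 and at 2, 4 and 4 reads with LoGI. With the same limits, 0 genes were high in HiGI tumors 16 and 26 only, and 0 in HiGI tumors 20 and 26 only. IL1A and IL1B set these limits, so neither their place in this group nor its small size is a finding of its own. The counts of 0 for the other pairs of tumors come from the same limits, and nothing is read from them.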
